A study of Mus musculus with 10 samples.

Results

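The cytosolic ribosomal protein genes of mouse liver were compared between animals carrying human APOE3 and animals carrying human APOE4. A gene was taken as a member where a probe set named it and no other gene, with a symbol of the Rpl or Rps series. The kinase genes of the Rps6k series, pseudogenes, Rps19bp1 and Rps9 were left out. In all, 48 genes met the rule, 26 of the large and 22 of the small subunit, among 18194 genes named in this way on the array. They were covered by 102 of the 45101 probe sets, and the probe set that stood highest on average over the 10 arrays was taken for each gene. Of the 48 genes, 42 averaged 4 log2 or more over the arrays and were tested, 22 of the large and 20 of the small subunit. The other 6 were Rpl12 (mean 2.89), Rpl14 (3.87), Rpl39l (1.93), Rpl3l (2.04), Rps16 (1.26) and Rps27 (3.73), near the floor of the values by the probe set that names them alone. Rpl14 (3.87) lay just under the limit and Rps25 (4.20) just above it. Rpl3, Rpl5, Rpl10, Rplp1 and Rps27a, which no probe set names alone, were not analysed here.

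Liver RNA came from 10 female mice of 3 months on a C57BL/6 background, 5 homozygous for APOE3 and 5 for APOE4, with 1 extract and 1 array per animal. In every animal the mouse Apoe gene had been replaced by the human gene, which stands under the mouse Apoe promoter, so the study holds no animals with mouse Apoe. All animals ate a diet with 2 g/kg of cholesterol in which 41% of the energy came from milk fat, for 6 weeks by the series text and for 2 months by the growth protocol. The values are log2 GCRMA values as deposited, and the array medians lay between 2.62 and 2.67.

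Ribosomal proteins join ribosomal RNA in the nucleolus to form a large subunit, which carries the peptidyl transferase centre, and a small subunit, which decodes the message. Their genes are transcribed at high rates in nearly all cells, and in hepatocytes they serve the synthesis of plasma proteins. The messages are short and begin with a run of pyrimidines, the terminal oligopyrimidine (TOP) tract, through which mTORC1 and LARP1 regulate their translation. An array measures the amount of message and not its translation.

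The start regions of the genes with the smallest p in each subunit are shown because the TOP tract lies there. Each run holds 20 bases before and 20 bases from the RefSeq start (GRCm38.p6), read 5′ to 3′ on the gene's strand. Capitals mark CTTTC, a core of the tract, and in Rps7 the reverse complement of CCGGAAG, a motif of ETS-type factors.
Rpl35 (chr2:39005112-39005151, minus strand): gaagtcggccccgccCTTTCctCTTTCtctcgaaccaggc
Rplp2 (chr7:141447631-141447670, plus strand): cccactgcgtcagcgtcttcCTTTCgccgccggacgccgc
Rps18 (chr17:33955646-33955685, minus strand): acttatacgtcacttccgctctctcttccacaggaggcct
Rps7 (chr12:28635934-28635973, minus strand): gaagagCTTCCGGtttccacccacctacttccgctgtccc
Rps26 (chr10:128626487-128626526, minus strand): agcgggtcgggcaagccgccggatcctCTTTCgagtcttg
RefSeq promoters were matched for 36 of the 42 tested members (not for Rpl7, Rpl8, Rps14, Rps20, Rps29 and Rps4l). CTTTC stood within 20 bases of a start, on the sense strand, in 9 of the 36 members (25%) and in 6.44% of all 27025 genes of the promoter table. In the window from 250 bases before to 50 bases after the start, CCGGAAG stood on either strand in 20 members (55.6%) and in 9.93% of all genes. AAGATGG, a core of the YY1 motif, stood on either strand of the same window in 6 members (16.7%) and in 7.28% of all genes. The median log2 difference between the genotypes was 0.15 for the 9 members with CTTTC and 0.14 for the 27 without it.

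No tested member passed the adjusted threshold, but nearly all were slightly higher in APOE4 livers. Of the 42 tested members, 39 were higher and 3 were lower, with a median log2 difference of 0.14 (1.10-fold) and a range from -0.07 to 0.28. The median was 0.14 in the large subunit, where 21 of 22 members were higher, and 0.13 in the small subunit, where 18 of 20 were. In whole liver, a change in the share of a cell type and a change of RNA within cells cannot be told apart. Over all 14732 tested probe sets 60.9% were higher, with a median of 0.047. When each array was centred on its median, 34 of 42 members were higher (81.0%) against 47.5% of all tested probe sets, and the members' median was 0.079 against -0.0099.

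In limma, 0 of 42 members passed an adjusted p of 0.05 (lowest 0.46), against 12 of 14732 probe sets (0.0815%). At an unadjusted p under 0.05, 10 members were higher (23.8%) and 0 lower, against 5.53% of all tested probe sets higher and 2.46% lower. Among tested probe sets with a mean of at least 10, 5.93% were higher at that threshold. The 10 were Rpl8, Rpl35, Rplp2 and Rpl10a of the large subunit and Rps18, Rps7, Rps26, Rps15, Rps19 and Rps4x of the small subunit. The count depended on single animals. It was 6 (14.3%) without APOE3 replicate 3 or APOE3 replicate 4, against 4.53% and 4.91% of all tested probe sets in the same fits. It was 5 (11.9%) without APOE4 replicate 1 or APOE4 replicate 3, against 4.89% and 4.15%. It was 4 (9.52%) without APOE3 replicate 5 or APOE4 replicate 4, against 5.69% and 5.21%. With arrays centred it was 3 (7.14%; Rpl8, Rpl35 and Rps18), against 2.62%. In 14 members (33.3%) every APOE4 animal lay above every APOE3 animal, against 1.45% of all tested probe sets and 3.62% of the 2126 at that higher level. With arrays centred, 4 members were separated in this way, Rpl8, Rpl35, Rplp2 and Rps18, against 0.604% of all. In 0 members did the APOE4 animals all lie below, against 0.563%.

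**Figure D1:**
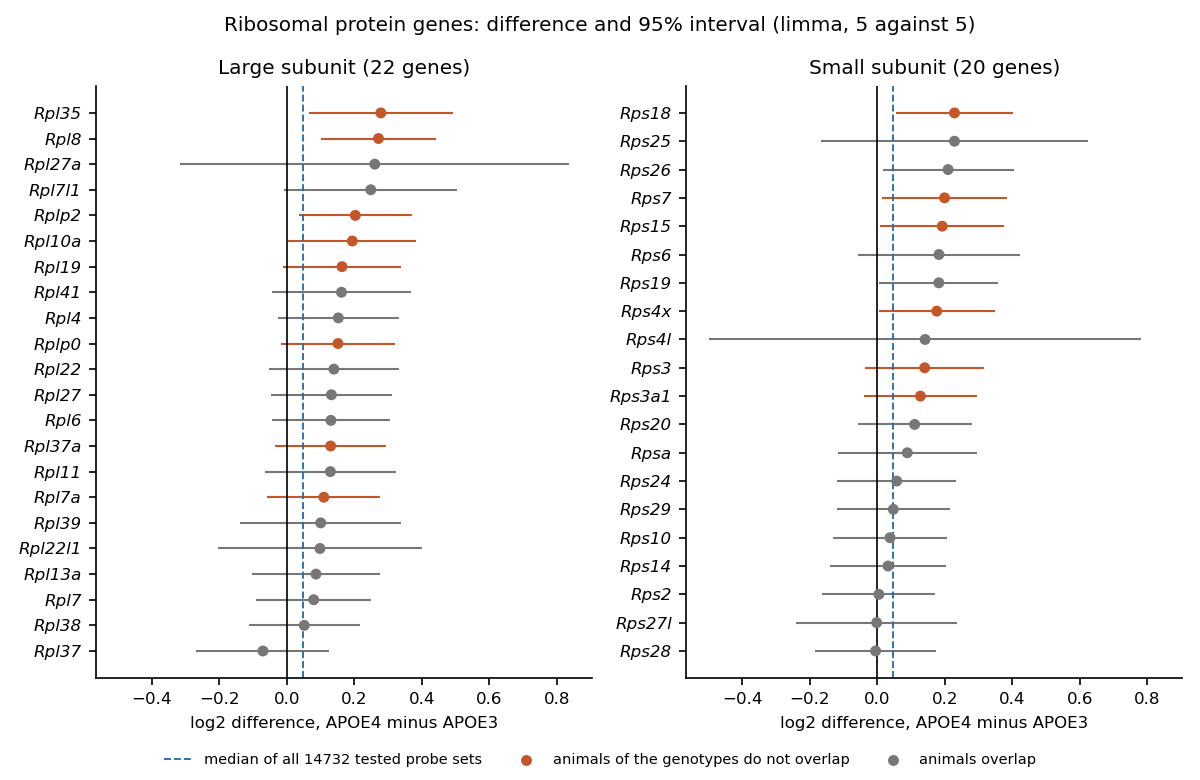
Log2 difference between APOE4 and APOE3 (horizontal axis) for each tested ribosomal protein gene, with its 95% interval from limma over 5 against 5 animals, for the large (left) and the small subunit (right). Orange marks the 14 genes whose animals do not overlap, and the dashed line is the median of all 14732 tested probe sets. Of the 42 points, 39 lie above 0, and the intervals of 10 genes lie wholly above 0.

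The members were also read in each animal. The mean log2 value over the 42 members was 11.55, 11.55, 11.48, 11.50 and 11.48 in APOE3 replicates 1 to 5, 11.51 ± 0.036 (SD, n = 5). In APOE4 replicates 1 to 5 it was 11.67, 11.58, 11.63, 11.72 and 11.62, 11.65 ± 0.053 (SD, n = 5). These means did not overlap between the genotypes, with APOE4 replicate 4 the highest and APOE4 replicate 2 nearest to the APOE3 animals. Measured from the median of all tested probe sets of the same array, the groups overlapped. The members' mean then lay 4.36 to 4.43 log2 above that median in APOE3 animals and 4.42 to 4.56 above it in APOE4 animals, with APOE4 replicate 2 below APOE3 replicates 1, 2 and 3. Of the 42 members, 15, 16, 4, 7 and 7 lay above their own mean over the 10 arrays in the APOE3 animals, and 38, 30, 32, 40 and 25 in the APOE4 animals. Over all tested probe sets a smaller difference was seen in the same direction. Between 41.6% and 50.7% of them lay above their own mean in APOE3 animals and between 51.5% and 56.2% in APOE4 animals. In APOE4 replicate 5, with 25 of the 42 members above, the share over all tested probe sets was 55.4%. The spread between animals of a genotype was small for these genes, with a median SD of 0.076 log2 over the members against 0.23 over all tested probe sets and 0.15 over those with a mean of at least 10.

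**Figure D2:**
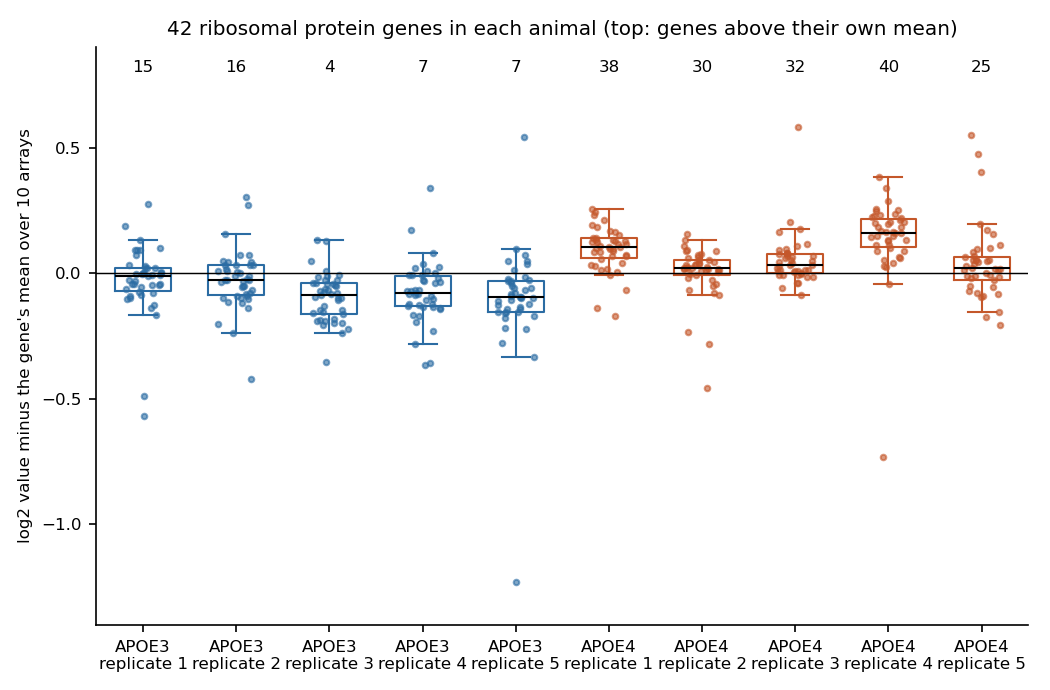
Log2 value of each of the 42 genes minus its own mean over the 10 arrays (vertical axis), for each APOE3 (blue) and APOE4 (orange) animal, with boxes from the lower to the upper quartile whiskers by Tukey's rule and a black line at the median. Numbers at the top count the genes above their own mean, from 4 to 16 in APOE3 and from 25 to 40 in APOE4 animals.

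In the large subunit, Rpl8 and Rpl35 had the smallest p. Rpl8 encodes a protein at the peptidyl transferase centre. It read 11.43, 11.27, 11.29, 11.37 and 11.33 log2 in the APOE3 animals and 11.60, 11.54, 11.57, 11.67 and 11.67 in the APOE4 animals. The lowest APOE4 animal stood above the highest APOE3 animal, and the log2 difference was 0.27 (95% interval 0.10 to 0.44, 1.21-fold, adjusted p = 0.46 in limma). Rpl35 encodes a protein beside the exit of the peptide tunnel. Its values were 12.61, 12.55, 12.23, 12.35 and 12.47 in APOE3 and 12.71, 12.66, 12.69, 12.87 and 12.68 in APOE4. The groups did not overlap, APOE3 replicate 3 was the lowest of all, and the difference was 0.28 (0.065 to 0.49, adjusted p = 0.57 in limma).

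The stalk of the large subunit, which recruits the elongation factors, is built on Rplp0 and carries Rplp2. Rplp2 read 13.07, 13.05, 12.95, 12.97 and 12.96 in APOE3 animals and 13.27, 13.19, 13.15, 13.25 and 13.17 in APOE4 animals. The log2 difference was 0.20 (95% interval 0.036 to 0.37, adjusted p = 0.58 in limma). Rplp0 read 13.14, 13.07, 13.09, 13.10 and 13.16 in APOE3 and 13.37, 13.18, 13.25, 13.24 and 13.27 in APOE4, a difference of 0.15 (-0.016 to 0.32). Neither gene's groups overlapped, and APOE4 replicate 1 was the highest animal for both. Rpl10a had a difference of 0.19 (0.0035 to 0.38), with its highest APOE3 and its lowest APOE4 animal both at 12.26 to the second decimal.

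Among the other large subunit genes, Rpl19 differed by 0.16 (95% interval -0.012 to 0.34) and Rpl4 by 0.15 (-0.026 to 0.33), the former without overlap between the genotypes. Rpl37a (0.13) and Rpl7a (0.11) also had groups that did not overlap. Rpl11, whose protein can bind and inhibit the p53 ligase Mdm2 when ribosome assembly is disturbed, differed by 0.13 (-0.065 to 0.32). The lowest differences were those of Rpl37 (-0.07, -0.27 to 0.13), Rpl38 (0.051, but -0.0052 with arrays centred) and Rpl7 (0.08). The probe set of Rpl37 had a mean of 8.74. Probe sets that carry the symbols Rpl37 and Rpl37rt together, with means of 12.96 and 12.72, were at 0.11 and 0.081. The genes not named so far, Rpl6, Rpl13a, Rpl22, Rpl27, Rpl39 and Rpl41, lay between 0.086 and 0.16. Rpl27a differed by 0.26, with the widest interval of the subunit (-0.32 to 0.84). APOE3 replicate 5 stood at 9.55 for that gene, against 10.86 to 11.05 in the other APOE3 animals, and without it the difference was -0.014.

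In the small subunit, the genes with the smallest p were Rps18, Rps7, Rps26 and Rps15. Rps18, a protein of the head that touches the large subunit, read 12.15, 12.19, 12.10, 12.16 and 12.27 in APOE3 and 12.39, 12.31, 12.45, 12.51 and 12.34 in APOE4. The groups did not overlap, and the log2 difference was 0.23 (95% interval 0.054 to 0.40, 1.17-fold, adjusted p = 0.57 in limma). Rps7, which takes part in small subunit assembly, read 12.28, 12.21, 12.28, 12.12 and 12.07 in APOE3 and 12.39, 12.38, 12.36, 12.52 and 12.31 in APOE4. Here the difference was 0.20 (0.015 to 0.38, adjusted p = 0.59 in limma), again without overlap.

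Rps26 lies at the exit of the message channel. It read 11.70, 11.43, 11.63, 11.60 and 11.45 in APOE3 and 11.88, 11.68, 11.76, 11.83 and 11.72 in APOE4, a log2 difference of 0.21 (95% interval 0.016 to 0.40). APOE3 replicate 1 overlapped the APOE4 range. Rps15, near the decoding site, read 11.92, 11.98, 11.74, 11.82 and 11.87 in APOE3 and 12.08, 11.98, 12.04, 12.18 and 12.01 in APOE4, a difference of 0.19 (0.0093 to 0.38). Its highest APOE3 and its lowest APOE4 animal were both at 11.98 to the second decimal. Rps19, the gene most often mutated in Diamond-Blackfan anaemia, differed by 0.18 (0.0058 to 0.36), with APOE3 replicate 1 above APOE4 replicate 5. Rps4x, an X-linked gene, differed by 0.18 (0.0042 to 0.35) without overlap, as did Rps3 (0.14) and Rps3a1 (0.13). In limma the adjusted p was 0.59 for Rps26, 0.60 for Rps15 and 0.61 for both Rps19 and Rps4x.

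**Figure D3:**
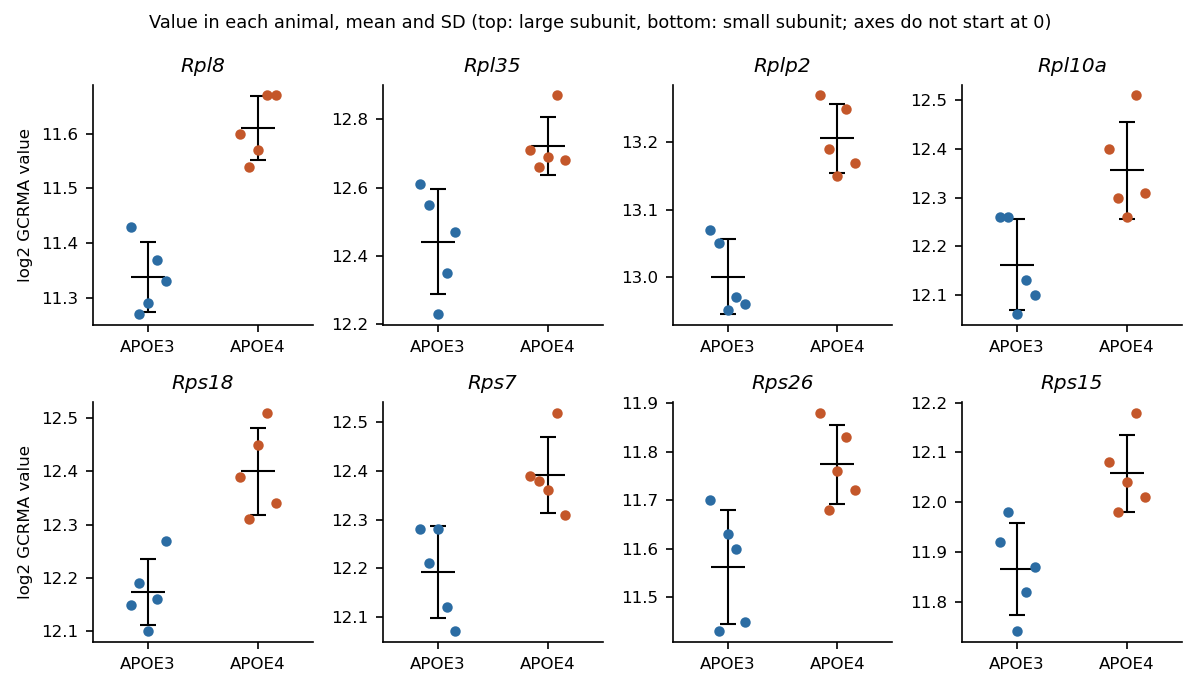
Log2 GCRMA value of the 4 genes with the smallest p in each subunit (top row large, bottom row small), with 1 point per animal and the mean and SD of 5 animals per genotype. Each vertical axis has its own range and does not start at 0. In the panel of Rps26 the genotypes overlap. In those of Rpl10a and Rps15 the highest APOE3 and the lowest APOE4 point are equal to the second decimal (12.26 and 11.98). In the other panels all APOE4 points lie above all APOE3 points.

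At the low end of the small subunit, Rps28 (-0.0048, 95% interval -0.18 to 0.17), Rps27l (-0.0017, -0.24 to 0.24) and Rps2 (0.0049, -0.16 to 0.17) had the lowest differences. Rps14, the gene lost in the 5q- syndrome, differed by 0.032 (-0.14 to 0.20), Rps10 by 0.038 and Rps29 by 0.048, and all of these were below 0 with arrays centred. Rps20 was at 0.11 and Rps24 at 0.058. Rps6, the substrate of the S6 kinases, differed by 0.18 (-0.058 to 0.42) and Rpsa, which also serves as a laminin receptor, by 0.089 (-0.12 to 0.30). The probe set of Rps6 had a mean of 7.85. Probe sets that carry the symbols Rps6 and Rps6-ps4 together ranged from -0.24 (mean 8.36) to 0.56 (mean 11.13). Those of them with the highest means, 13.6 and 13.5, were at 0.22 and 0.10. Rps25 lay near the floor, at 4.08 ± 0.26 in APOE3 and 4.31 ± 0.35 in APOE4 (SD, n = 5 each), with 3 arrays under 4. Its difference of 0.23 equalled that of Rps18 but had a wider interval (-0.17 to 0.62).

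Paralogs that can replace or accompany a ribosomal protein were measured for some members. Rpl7l1, a homologue of Rpl7 that acts in large subunit assembly, differed by 0.25 (95% interval -0.0079 to 0.51), and its 3 tested probe sets lay between 0.22 and 0.28. Rpl22l1, the paralog of Rpl22, differed by 0.098 (-0.20 to 0.40), beside 0.14 for Rpl22 itself. Rps4l, a paralog of Rps4x, read between 7.57 and 8.88 and had the widest spread of the small subunit, with a difference of 0.14 (-0.50 to 0.78). Rps27l, a p53 target, is given above. Rpl3l, the form of heart and skeletal muscle, and Rpl39l, the form of male germ cells, stayed at or under 2.35 on all arrays.

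Several probe sets of a gene gave similar but not equal differences. Among the 19 genes with more than 1 tested probe set, all tested probe sets were positive in 14 and the signs were mixed in 5 (Rps18, Rps20, Rps24, Rps27l and Rps28). The 5 tested probe sets of Rpl35 lay between 0.21 and 0.30. Those of Rps18 were at 0.23, 0.17 and -0.017. For Rps28 the probe set with the highest mean (13.67) was at -0.0048, while the others (12.60 and 12.59) were at 0.16 and 0.10. Rps29 read 0.048 at a mean of 13.91 and 0.14 and 0.15 at means of 12.49 and 12.28. Rps14 read 0.032 at a mean of 12.41 and 0.17 at a mean of 12.07. The 5 tested probe sets of Rps10 lay between 0.038, by the one with the highest mean, and 0.16. Rps20 ranged from -0.31 to 0.11, its lowest value coming from a probe set near the floor (mean 4.80). In 12 of the 19 genes the probe set with the highest mean gave a difference below the median of the gene's others.

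**Figure D4:**
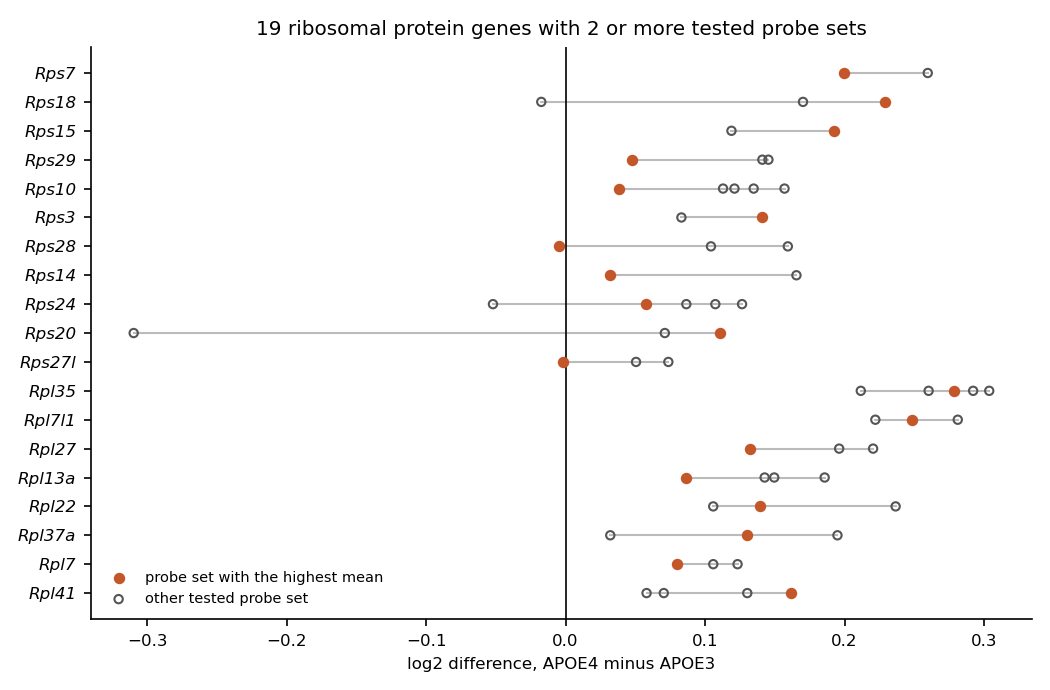
Log2 difference between APOE4 and APOE3 (horizontal axis) by each tested probe set of the 19 ribosomal protein genes that have more than 1. The filled orange point is the probe set with the highest mean, the open points are the others, and a line joins those of a gene. The points of 14 genes all lie above 0, and those of Rps20 spread most, from -0.31 to 0.11.

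The difference also varied with the kind of probe set and the level. The 13 members read by a probe set with the suffix _x_at, by which the manufacturer marks probes that may bind other transcripts, had a median of 0.058, against 0.15 in the 29 others. The median was 0.12 in the 24 members with a mean of at least 12, 0.16 in the 12 between 10 and 12, and 0.16 in the 6 below 10. These medians were not tested against each other. Over all tested probe sets with a mean of at least 12 the median was 0.029. Beside the members, 33 tested probe sets carried several symbols, each of a ribosomal protein gene or pseudogene, so none was counted as a member. Of these 33, 30 were higher in APOE4, with a median of 0.13, against 60.9% higher over all tested probe sets. At an unadjusted p under 0.05, 10 were higher and 1 was lower, against 5.53% and 2.46% of all tested probe sets. In limma 0 passed. Several of them carry the same symbols, so the 33 do not stand for 33 genes.

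The members lay on 16 chromosomes by RefSeq, and the 5 on chromosome 7, which also carries Apoe, were Rpl13a (0.086), Rpl27a (0.26), Rplp2 (0.20), Rps19 (0.18) and Rps3 (0.14). Rps9, left out by the rule, also lies there and differed by 4.73, 0.027 and -0.23 by its 3 tested probe sets, of which the first passed (adjusted p = 1.1e-10 in limma).

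Other genes that serve the supply of ribosomes were read as lists. Of 17 tested translation factors and other genes with TOP-type messages, 14 were higher in APOE4, with a median of 0.10 (12 of 17 and 0.046 with arrays centred). Of the 17, 0 had an unadjusted p under 0.05, against 5.53% of all tested probe sets higher and 2.46% lower. The lowest p was that of Btf3, a partner of nascent peptides (-0.17, 95% interval -0.34 to 0.00074). For Btf3 alone of the 17 the APOE4 animals all lay below the APOE3 animals, against 0.563% of all tested probe sets. Btf3 had an unadjusted p under 0.05 with arrays centred (-0.23). Next came Eif3f, of an initiation factor (0.19, -0.011 to 0.39), and Naca, whose protein pairs with that of Btf3 (0.15, -0.022 to 0.32). The elongation factor gene Eef1a1 was at 0.029 (-0.028 with arrays centred) and Eef2 at 0.09. Fau, which encodes a small subunit protein fused to a ubiquitin-like domain and lies outside the rule, was at 0.067.

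Among 41 tested ribosome assembly genes, 33 were higher, with a median of 0.092, and 3 had an unadjusted p under 0.05 in that direction (5.53% over all). These were Lsg1, a GTPase of late large subunit maturation (0.40, 95% interval 0.076 to 0.73), Bysl, of small subunit maturation (0.47, 0.033 to 0.91), and Wdr12, of the PeBoW complex (0.32, 0.0056 to 0.63). Lsg1 lay near the floor, at 4.20 in APOE3 and 4.61 in APOE4. The count of 3 was 0 without APOE4 replicate 3 (4.15% over all in that fit). It was 1 when APOE3 replicate 3 (4.53%), or replicate 1 (4.89%) or 5 (4.34%) of APOE4, was left out. It was 6 without APOE3 replicate 5 (5.69%) and 8 without APOE4 replicate 4 (5.21%). With arrays centred, 27 of the 41 were higher, with a median of 0.036. At that threshold 1 was then higher, against 2.62% of all tested probe sets, and 2 were lower. RNA polymerase I genes had 7 of 11 higher and a median of 0.062 (0.0058 with arrays centred), with Ttf1 (0.20), Polr1e (0.15) and Twistnb (0.17) lowest in p. Ttf1 (mean 4.61 in APOE3) and Polr1e (4.71) also lay near the floor. In the mTORC1 and Myc list 10 of 13 were higher, with a median of 0.058 (7 of 13 and 0.0014 with arrays centred). Its lowest p values were those of Rps6kb2 (0.23, -0.056 to 0.51), Larp1 (0.24, -0.12 to 0.61) and Akt1s1 (0.12). Rps6kb2 lay near the floor, at 4.24 in APOE3 and 4.46 in APOE4.

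Of 10 listed genes of p53 and the response to disturbed ribosome assembly, 5 were tested. In APOE4, 4 of the 5 were lower and Bbc3 was at 0.086, with a median of -0.22 that was -0.10 without APOE3 replicate 3. Ccng1 (-0.35, 95% interval -0.63 to -0.068) and Sesn1 (-0.33, -0.63 to -0.025), both p53 targets, had an unadjusted p under 0.05, against 2.46% of all tested probe sets lower. Without APOE4 replicate 5 neither had, and without APOE3 replicate 1, 2, 4 or 5 or APOE4 replicate 3 or 4 Ccng1 alone had. Mdm2 was at -0.15 (-0.47 to 0.17) and Cdkn1a at -0.22 (-1.06 to 0.61), and Cdkn1a was at 0.17 without APOE3 replicate 3. In limma no member of these lists passed (lowest adjusted p = 0.58).

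**Figure D5:**
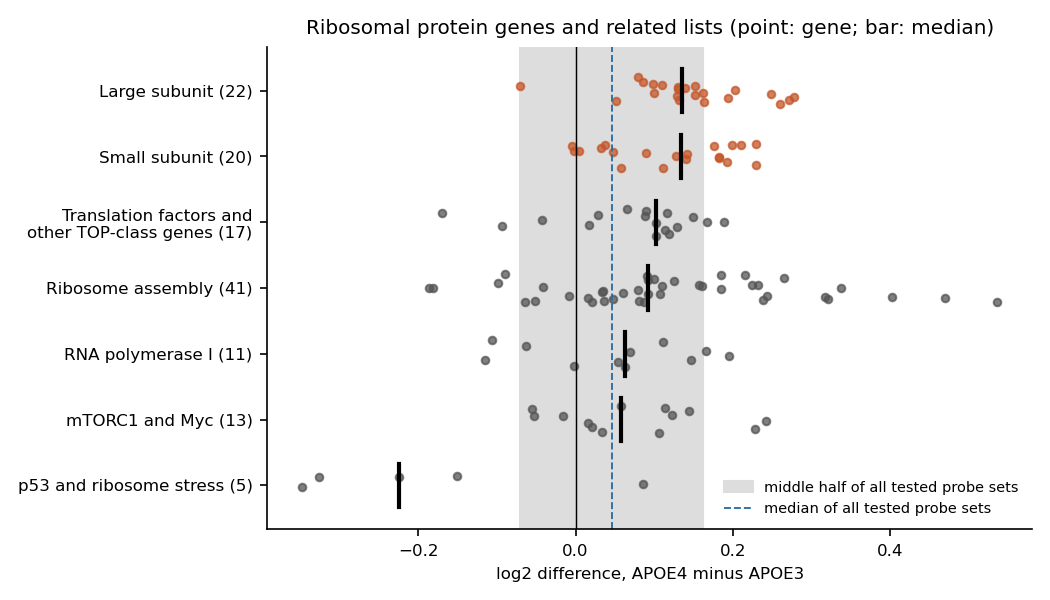
Log2 difference between APOE4 and APOE3 (horizontal axis) for each tested gene of both subunits (orange) and of the related lists (grey), with a black bar at the median of each list and the number of genes in brackets. The grey band is the interquartile range of all tested probe sets and the dashed line their median, 0.047. The medians are 0.14 and 0.13 for the subunits and -0.22 for the 5 genes of the p53 list.

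Markers of liver cell types were read on the same arrays. Of 14 tested hepatocyte markers 10 were lower in APOE4, with a median of -0.09 (7 of 14 and -0.0015 without APOE3 replicate 3). With arrays centred 13 of the 14 were lower, with a median of -0.15. Oat alone had an unadjusted p under 0.05 (-0.37), while Hal (-0.36) and Cyp2e1 (-0.13) followed. Without APOE3 replicate 3, 4 or 5 or APOE4 replicate 4, Oat was not under 0.05. Their mean log2 value lay between 12.82 and 13.28 in APOE3 and between 12.91 and 13.17 in APOE4 animals. Of 14 Kupffer cell and macrophage markers 12 were lower, with a median of -0.22 and a mean level of 8.28 to 9.75 in APOE3 and 8.10 to 9.03 in APOE4. APOE3 replicate 4 stood apart at 9.75, the other 4 APOE3 animals reaching at most 8.86. Without it 8 of 14 were lower, with a median of -0.022, and both genotypes had a mean level of 8.49. Cd163 (0.87), Marco (-1.90) and Ctss (-0.26) had the lowest p there, and without that animal Cd163 was at 0.44 and Marco at -0.72. Marco averaged 3.38 in APOE4, under the limit of 4. In APOE3 it read 6.62 and 9.99 in replicates 2 and 4 but 2.80, 3.55 and 3.44 in the others. Its differences therefore have no sure scale. Endothelial markers had 6 of 10 higher (median 0.084, Cdh5 at -0.34 with an unadjusted p under 0.05) with mean levels of 6.87 to 7.20 and 6.94 to 7.26. Stellate cell markers had 3 of 8 higher (median -0.04, but 0.13 without APOE4 replicate 5, 0.061 without APOE4 replicate 3 and 0.033 without APOE3 replicate 2, Lrat at 0.75 with an unadjusted p under 0.05) with mean levels of 7.74 to 8.62 and 7.52 to 8.87. Over all tested probe sets, 2.46% were lower and 5.53% higher at an unadjusted p under 0.05, the threshold that Oat, Cdh5 and Lrat met. With arrays centred the median was -0.28 in the Kupffer cell and macrophage list, 0.027 in the endothelial and -0.097 in the stellate list. The ranges of the mean levels overlapped between the genotypes in all of these lists, and their part in the ribosomal difference was not tested.

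Markers of other cell types were mostly near the floor. Of the 10 genes in the lymphocyte list 2 were tested, Ptprc at -0.41 (-0.10 without APOE3 replicate 4) and Ms4a1 at -0.02. Ptprc was highest in APOE3 replicate 4 (9.01), which also had the highest mean of the Kupffer cell and macrophage markers. Cd3e (mean 2.23) and Cd79a (2.21) were at background. No cholangiocyte marker was tested, Krt19 standing at 2.66. Of the pancreas list only Cela1 (0.17) was tested, and of the erythroid list Alas2 (-0.19, but 0.0055 without APOE4 replicate 5). Of the adipocyte list Fabp4 (-0.34) and Car3 (0.12) were tested, Car3 at a mean of 13.53 in APOE3 and 13.64 in APOE4. The 3' minus 5' difference of Actb, a measure of RNA integrity, was 2.68 ± 0.37 log2 in APOE3 and 2.64 ± 0.20 in APOE4 (SD, n = 5 each, exact permutation p = 0.88, two-sided). That of Gapdh was 0.44 ± 0.21 and 0.40 ± 0.13 (SD, n = 5 each, exact permutation p = 0.73, two-sided). The 18S ribosomal RNA control probe sets differed by 0.0082, -0.092 and -0.11, less than their SD between the APOE3 animals (0.26, 0.29 and 0.25).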

How the data were processed

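Per the labels, total liver RNA was labelled with biotin from 2 ug and hybridised to one-colour arrays. Per the submitters' processing notes, the authors computed the deposited log2 values with GCRMA 2.12.1, run under R 2.7.1. The build of the array's design is not given in the sources used here. Genotype and replicate number came from the sample titles.

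Apart from 64 controls, a probe set was tested where its average over the 10 arrays reached 4 log2. APOE4 was compared with APOE3 by limma 3.58.1 under R 4.3.3 (a linear model with moderated errors, two-sided, genotype as the only term), and p was adjusted by Benjamini-Hochberg over 14732 probe sets, with a threshold of 0.05. Symbols came from the platform annotation, in which 34958 probe sets have 1 symbol, 932 have several and 9211 have none. GCRMA puts undetected transcripts near a floor, so differences under about 4 log2 have no sure scale. Levels of different probe sets are not comparable. Precision is limited by having 5 arrays per genotype. The fit was tested on simulated data.

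The members and the gene lists were chosen with earlier results of these data known, among them a higher mean of a smaller ribosomal list. In each subunit the text names the 8 genes with the smallest p, the 3 with the lowest difference, and a fixed set of stalk, disease-linked and paralog genes. From the other lists it names up to 3 with the smallest p. Eef1a1, Eef2, Cdkn1a and the members outside these rules were named after their values were seen. Alternatives were other filters, eBayes settings, array weights, renewed normalization, centring, a floor at 4, other choices of probe set, a replicate block and leaving out each animal. For the other lists, centring, renewed normalization and leaving out each animal were chosen after the data were seen, as was the members' mean relative to the array median. Plots were made in matplotlib 3.10.9 under Python 3.11.15.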

Additional observations from a re-analysis of the deposited data

Results flagged for a closer look

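In 86 groups of 5 animals (each tested ribosomal protein gene and their mean, in each genotype), 5 held an animal whose gap to its nearest neighbour was above Dixon's 95% critical value of 0.71 of the range, and chance alone gives about 5% of groups. Rpl27a was at 9.55 in APOE3 replicate 5, with the other APOE3 animals between 10.86 and 11.05. Rpl35 was at 12.87 in APOE4 replicate 4, against 12.66 to 12.71 in the others, and Rpl7a was at 12.54 in the same animal, next to 12.41. Rpl7l1 was at 8.83 in APOE4 replicate 2, with the next at 9.22. Rps20 was at 13.30 in APOE3 replicate 2, with the next at 13.18.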

How the results depend on the processing

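Under 22 alternatives, 0 members passed in any (lowest adjusted p 0.146, for Rpl8), and 0 were lower at an unadjusted p under 0.05 or without overlap. Members higher at an unadjusted p under 0.05 numbered 10, but 17 of 36 with only probe sets of a mean of at least 10 (10.2% of all), 18 with trend and robust settings (5.66% of all), 4 with renewed quantile normalization (3.14% of all), 3 with arrays centred (2.62%) and 4 to 9 with 1 animal left out (4.15% to 8.02%). With all tested probe sets of the members they were 20 of 84 probe sets (5.53% of all), where some genes count more than once. Members without overlap numbered 14 (1.45% of all tested probe sets), but 9 with renewed normalization (0.672%) and 4 with centring (0.604%). With 1 animal left out they numbered 14 to 17, against 1.93% to 3.77% of all tested probe sets. Members above 0 numbered 39 of 42, 78 of the 84 probe sets, and 37 to 41 with 1 animal left out. The median of 0.14 was 0.079 with centring (large subunit 0.079, small 0.078) and 0.11 to 0.15 with 1 animal left out (large 0.12 to 0.16, small 0.10 to 0.15). Centring sets each array's median of the tested probe sets, itself 0.057 higher in APOE4, to a common value.

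The replicate number as a block left the median as it was and 3 members (7.14%) higher at an unadjusted p under 0.05, against 5.63% of all tested probe sets. The deviations of same-numbered animals correlated between -0.079 and 0.41, and 4 of 10 animals correlated best with their own number, and the labels name nothing that animals of a number share. As not every pair correlated above 0.1, the numbers were not taken as pairs.

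Of the 42 members, 32 kept their sign in every alternative that gave them a value. With centring Rpl38 was at -0.0052, Rps10 at -0.019, Rps14 at -0.025, Rps2 at -0.052 and Rps29 at -0.0089. With renewed normalization Rps2 was at -0.039 and Rps28 at 0.0084, and with array weights Rps27l was at 0.012. Without _x_at probe sets Rps20 was at -0.31, Rps24 at -0.052 and Rps27l at 0.051. With 1 animal left out, Rps2 ranged from -0.011 to 0.028, Rps27l from -0.043 to 0.067, Rps28 from -0.028 to 0.026 and Rpl27a from -0.014 to 0.36. The cause of these reversals was not tested.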
